A study of Mus musculus with 6 samples.

Results

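The genes described here encode nuclear partners of OGT, the enzyme that attaches the sugar O-GlcNAc to proteins. They are Hcfc1, Tet1, Tet2, Tet3, Bap1, Asxl1, Asxl2, Foxk1, Foxk2 and Sin3a, taken by symbol from a table of mouse aorta RNA. All 10 were found, each with a single gene identifier, among the 55487 genes of the table, and all 10 passed the filter on low counts that left 16139 genes for testing. Total RNA of aorta was sequenced from 3 libraries of mice with an Ogt knockout specific to smooth muscle cells and from 3 libraries of mice labelled LoxP, which carry floxed Ogt. Titles of both groups carry the prefix SM22, the protein encoded by the smooth muscle gene Tagln. The labels used here give no other word on the driver of the deletion, and none on age, sex, strain or the number of mice per library. The comparison asks which genes Ogt regulates in smooth muscle of the aorta.

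OGT meets chromatin through other proteins. HCF-1, the protein encoded by Hcfc1, binds OGT tightly and is also cleaved by it, and it bridges transcription factors to histone-modifying complexes. The TET enzymes oxidise methylated cytosine and recruit OGT to chromatin, and TET2 has been described as a regulator of smooth muscle identity. BAP1 is the catalytic subunit of a deubiquitinase (PR-DUB) that removes ubiquitin from histone H2A. ASXL1 and ASXL2 are its alternative activating subunits, and the forkhead factors FOXK1 and FOXK2 bring it to DNA. SIN3A is the scaffold of a histone deacetylase complex that also recruits OGT.

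The regions upstream of Hcfc1, Bap1 and Sin3a are shown because these were the members whose knockout libraries stood apart from the controls, Hcfc1 once control replicate 2 was left out. RefSeq promoter entries of build GRCm38.p6 were found for 9 of the 10 members, the exception being Foxk1, and were cut to the 250 bases before the start site. Each printed stretch is free of annotated exons. Capitals mark letters known as binding motifs of YY1 (AAGATGGC), the GABP family (CCGGAAG), SP1 (GGGCGG) or CREB (TGACG), on either strand. YY1 and GABP are factors that bind HCF-1. The stretches lie on the minus strand at chrX:73966358-73966607 for Hcfc1, on the plus strand at chr14:31251318-31251449 for Bap1 and on the plus strand at chr9:57076126-57076375, before the downstream start site, for Sin3a.
Hcfc1: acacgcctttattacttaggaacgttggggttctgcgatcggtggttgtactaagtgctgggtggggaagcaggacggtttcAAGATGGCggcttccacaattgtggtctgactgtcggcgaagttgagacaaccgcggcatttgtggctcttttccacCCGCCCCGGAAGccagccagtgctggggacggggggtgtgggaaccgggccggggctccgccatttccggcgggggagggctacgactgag
Bap1: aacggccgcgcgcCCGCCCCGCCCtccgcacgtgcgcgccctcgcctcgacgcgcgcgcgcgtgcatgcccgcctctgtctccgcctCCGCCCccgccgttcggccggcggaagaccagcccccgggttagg
Sin3a: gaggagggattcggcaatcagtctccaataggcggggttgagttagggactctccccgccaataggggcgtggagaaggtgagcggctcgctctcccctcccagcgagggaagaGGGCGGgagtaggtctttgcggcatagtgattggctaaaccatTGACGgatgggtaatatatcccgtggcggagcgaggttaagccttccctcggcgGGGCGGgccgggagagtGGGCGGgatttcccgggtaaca
Hcfc1 was the 1 member whose 250 bases held the YY1 letters, which 1.93% of the 13917 promoters of tested genes held. Its GABP letters, present in 12.5% of those promoters, share bases with an SP1 match on the opposite strand. Asxl1 and Asxl2 also held the GABP letters. The Bap1 stretch held 3 SP1 matches, the first pair of which overlap, and its CREB letters lay outside the printed bases. SP1 letters stood in 55.9% and CREB letters in 25.6% of the promoters of tested genes. GTAAACA of forkhead factors (2.14% of the promoters of tested genes), ACTACA of THAP11 and ZNF143 (8.90%) and the NRF1 motif (1.5%) were also searched, and 1 match was found, ACTACA before Asxl1. These matches describe letters in a window and do not show binding.

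Ogt RNA was lower in the knockouts. Ogt (ENSMUSG00000034160, chrX:101640060-101684351) had 93.3, 73.5 and 70.9 CPM (read counts scaled to library size with TMM factors) in knockout replicates 1 to 3, against 177.4, 183.2 and 150 CPM in control replicates 1 to 3. The knockout level was 0.466 times the control level (log2 fold change -1.10 ± 0.15 SE, edgeR adjusted p = 0.0214). The source of the remaining Ogt RNA was not tested. Oga, the gene of the O-GlcNAc-removing hydrolase, fell to 64.7 ± 3.10 CPM in knockouts, against 114 ± 6.65 CPM in controls (-0.82 ± 0.11, edgeR adjusted p = 0.0198, SD, n = 3 each). In bulk tissue, fewer cells of a type and less RNA per cell cannot be told apart. Neither Ogt nor Oga passed when control replicate 1 or any 1 knockout library was left out, with edgeR adjusted p up to 0.126 for Ogt and 0.132 for Oga. Smooth muscle markers were abundant in every library, with a summed level of 23916 to 28372 CPM in knockouts and 28673 to 34831 CPM in controls. Of those 8 markers edgeR called 1, Tagln, beside 3.45% of all genes tested. Tagln had 2526 ± 297 CPM in knockouts and 5553 ± 1138 CPM in controls (SD, n = 3 each). At an unadjusted p under 0.05 there were 3 of these markers, beside 22.7% of all genes tested. They were Tagln and Smtn on the lower side (log2 fold changes -1.14 and -0.35) and Des on the higher side (0.61). The libraries of the groups did not overlap for these 3 and for Myh11, 4 of the 8 markers, beside 31.8% of all genes tested. Endothelial markers summed to 688 to 1609 CPM in knockouts and 801 to 971 CPM in controls, and macrophage markers to 376 to 464 CPM in knockouts and 180 to 569 CPM in controls. edgeR called 0 of 8 and 0 of 7 of them, with 0 at an unadjusted p under 0.05. Of 7 fibroblast and 6 white adipocyte markers it called 0, with 1 and 2 at an unadjusted p under 0.05. Brown adipocyte markers gave 2 falls (Ucp1, Cox8b) among 4 tested, beside 1.56% of all genes tested called lower. Their sums were 58.2 to 67.5 CPM in knockouts and 105 to 157 CPM in controls. Cardiac and skeletal muscle markers gave 2 rises (Ckm, Actc1) among 6 tested, beside 1.9% of all genes tested called higher. Their sums were 79.2 to 92.5 CPM in knockouts and 17.1 to 31.7 CPM in controls. Lymphocyte markers summed to between 8.52 and 13.02 CPM over all libraries, mesothelium markers to at most 3.0 CPM and neuron and Schwann cell markers to at most 33.4 CPM. No marker was at 0 in all libraries. The part of these cell types in the results below was not tested.

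1 control library, replicate 2, was unlike the rest. It had 3038782 counts, against 11845644 to 18218385 in the other 5 libraries. The share of its counts on mitochondrial rRNA genes was 10.2%, where the others had 0.491% to 0.823%. Calls gained or lost without it are named beside the results they touch.

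No OGT partner gene passed the main test. edgeR's quasi-likelihood test called 0 of the 10 members at an adjusted p of 0.05, where it called 3.45% of all 16139 genes tested (1.9% higher and 1.56% lower). At an unadjusted p under 0.05 there were 4 members, Hcfc1 and Bap1 on the higher side and Tet1 and Sin3a on the lower side, beside 22.7% of all genes tested. Knockout and control libraries did not overlap for 2 members, Bap1 and Sin3a, beside 31.8% of all genes tested. DESeq2 called 2 members, Tet1 and Sin3a, both lower, where it called 10.3% of genes (5.11% lower), and limma-voom called 0, where it called 4.73%. The median log2 fold change of the 10 members was -0.27, with 8 values below 0, against a median of -0.01 over all genes tested. Without control replicate 2 the members' median was -0.08.

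**Figure D1:**
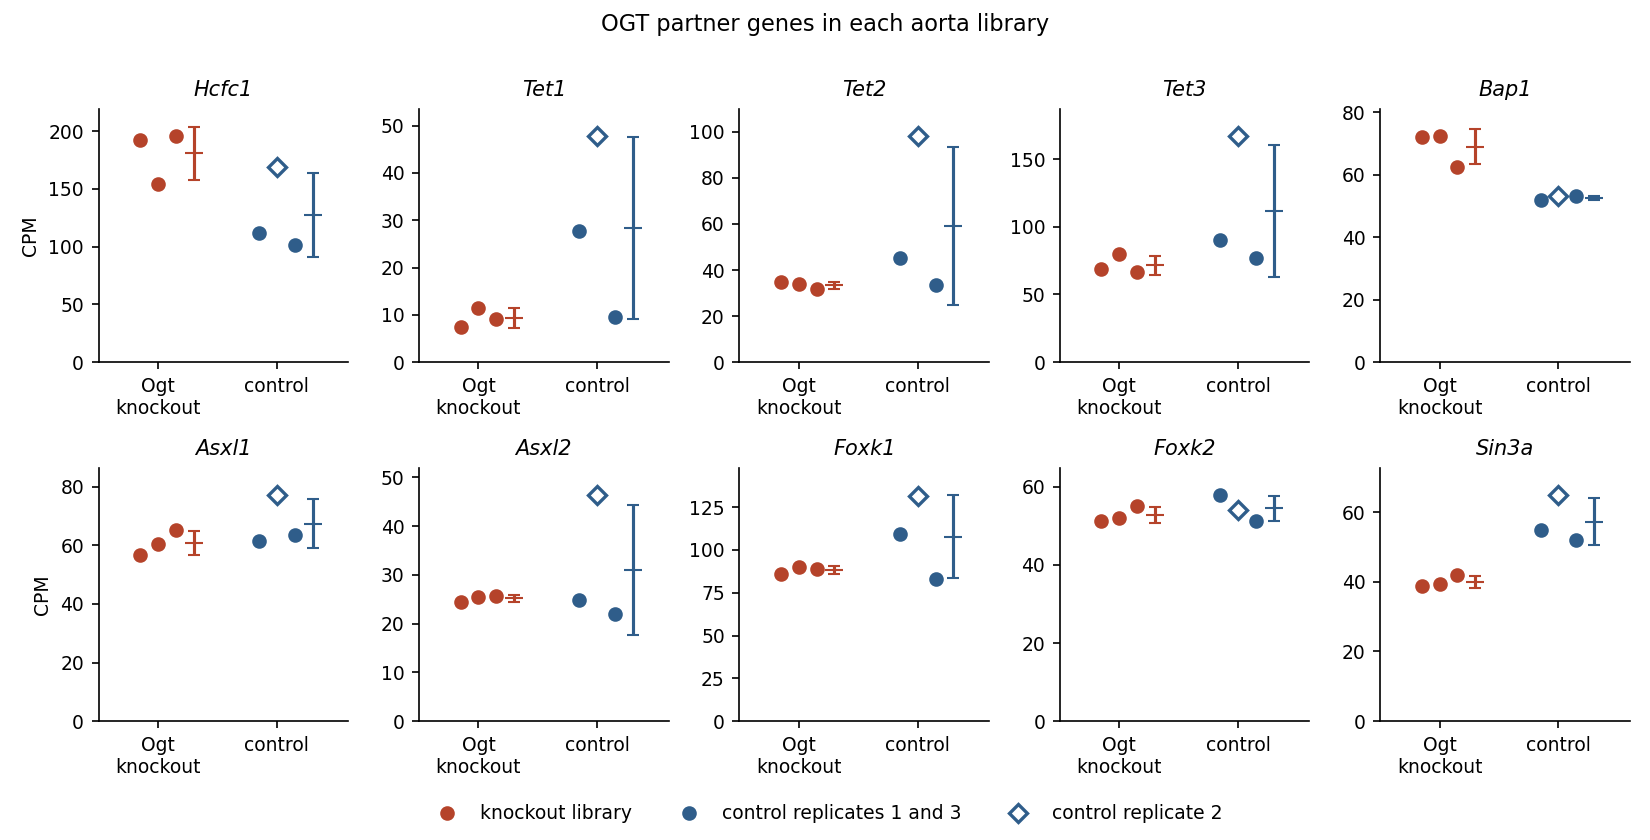
Level of each OGT partner gene in each library (vertical axis, CPM, starting at 0), with knockout libraries on the left and control libraries on the right of each panel; bars give the mean ± SD of 3 libraries and the open diamond is control replicate 2. The open diamond is the highest control library in every panel except Foxk2, and for Bap1 it is level with control replicate 3.

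Hcfc1 (ENSMUSG00000031386, chrX:73942792-73966357) had the highest mean per kilobase of exon among the members in both groups, but in controls it overlapped Foxk1. It had 192 CPM, 154 CPM and 196 CPM in knockout replicates 1 to 3, against 112, 169 and 102 CPM in control replicates 1 to 3. The groups overlapped through a single pair of libraries, since control replicate 2 lay above knockout replicate 2. The means were 181 ± 23.1 CPM in knockouts and 127 ± 36.1 CPM in controls (SD, n = 3 each). The log2 fold change was 0.51 ± 0.21 (SE), a ratio of 1.43 with a 95% interval of 1.02 to 1.999, and did not pass (edgeR adjusted p = 0.201). Without control replicate 2 it was 0.77 ± 0.13, a ratio of 1.70, and passed (edgeR adjusted p = 0.0341), in a fit that called 2.97% of 16535 genes higher. Over all 13 alternative settings its log2 fold change lay between 0.38 and 0.77 and its adjusted p between 0.0341 and 0.444.

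The ratio of Hcfc1 to its paralogue separated the groups in all 6 libraries. Hcfc2 encodes the shorter paralogue of HCF-1. Per kilobase of exon, Hcfc1 stood at 5.42, 5.43 and 4.65 times Hcfc2 in knockout replicates 1 to 3, against 3.89, 3.69 and 3.45 times in control replicates 1 to 3. All knockout values lay above all control values, control replicate 2 included (5.16 ± 0.45 in knockouts and 3.67 ± 0.22 in controls, SD, n = 3 each). A two-sided exact permutation test gave p = 0.1, which is the smallest that 3 against 3 libraries allow. Relative to Ogt itself, the gene deleted by design, Hcfc1 stood at 1.98, 2.02 and 2.66 in knockouts against 0.608, 0.886 and 0.653 in controls.

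The 3 TET genes had lower means in the knockouts and a wide spread in the controls. Tet3 (ENSMUSG00000034832, chr6:83362373-83459084) was the most abundant of them, with 68.8, 79.6 and 66.2 CPM in knockouts against 90.5, 167 and 76.8 CPM in controls. Tet2 (ENSMUSG00000040943, chr3:133463679-133545139) had 34.6, 33.9 and 31.6 CPM in knockouts against 45.3, 98.3 and 33.6 CPM in controls. For both genes control replicate 2 was the highest library, and control replicate 3 lay inside the knockout range. Tet1 (ENSMUSG00000047146, chr10:62804570-62908996) had 7.40, 11.5 and 9.16 CPM in knockouts, against 27.8, 47.8 and 9.52 CPM in controls. It rested on 87, 195 and 168 counts in the knockouts and on 404, 129 and 131 counts in the controls. Its control libraries disagreed with each other also without control replicate 2, since control replicate 1 was far above control replicate 3.

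The log2 fold changes were -1.53 ± 0.54 for Tet1, -0.78 ± 0.37 for Tet2 and -0.62 ± 0.28 for Tet3 (SE), with edgeR adjusted p of 0.161, 0.267 and 0.241. Without control replicate 2 they were -0.98, -0.23 and -0.22, with edgeR adjusted p of 0.264, 0.355 and 0.310. Tet1 was called by DESeq2 (log2 fold change -1.59, adjusted p = 0.0161) and by edgeR without control replicate 3 (-1.98, adjusted p = 0.0386, in a fit that called 0.742% of genes lower), the control library in which it was lowest. Over its alternative settings the adjusted p of Tet1 lay between 0.0161 and 0.396. The ratio within the family overlapped between groups, with Tet3 at 2.17 ± 0.19 times Tet2 per kilobase in knockouts and 2.02 ± 0.29 times in controls (SD, n = 3 each, two-sided exact permutation p = 0.5).

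**Figure D2:**
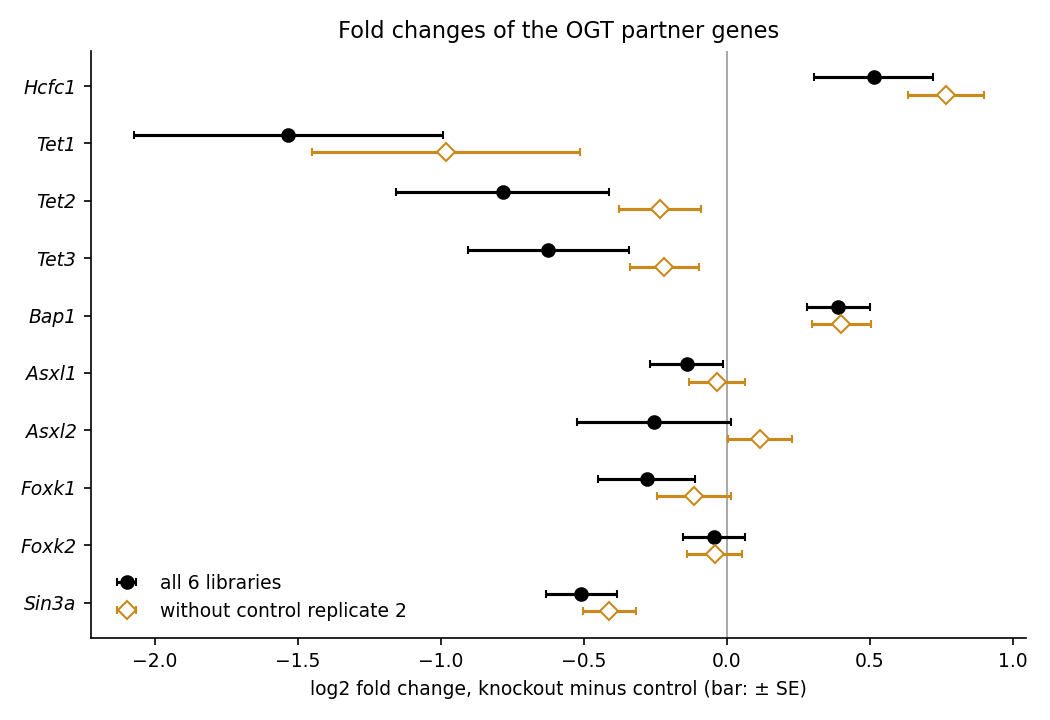
Log2 fold change of each OGT partner gene, knockout minus control (horizontal axis, bars ± SE), from all 6 libraries (filled circles) and without control replicate 2 (open diamonds). Hcfc1 moves to 0.77 without that library and Tet2 and Tet3 move to -0.23 and -0.22, while Bap1 stays near 0.4.

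Bap1 gave the tightest controls of all members. It (ENSMUSG00000021901, chr14:31251450-31259944) had 71.9, 72.3 and 62.5 CPM in knockout replicates 1 to 3, against 51.9, 53.0 and 53.0 CPM in control replicates 1 to 3. Every knockout library lay above every control library, and control replicate 2 lay level with the other controls. Bap1 rested there on 143 counts, against 755 and 729 in control replicates 1 and 3. Counting error limits how exactly its level in control replicate 2 is known, so the close agreement may be fortuitous. The means were 68.9 ± 5.57 CPM in knockouts and 52.6 ± 0.64 CPM in controls (SD, n = 3 each), a ratio of 1.31 with a 95% interval of 1.10 to 1.56. The log2 fold change was 0.39 ± 0.11 (SE) and did not pass over all genes tested (edgeR adjusted p = 0.0956). It lay between 0.36 and 0.46 over all alternative settings, with adjusted p between 0.0615 and 0.305.

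The genes of BAP1's partner subunits did not pass the test either. Asxl1 (ENSMUSG00000042548, chr2:153345829-153404007) had 56.7, 60.6 and 65.0 CPM in knockouts against 61.6, 77.1 and 63.5 CPM in controls (log2 fold change -0.14 ± 0.13, edgeR adjusted p = 0.553). Asxl2 (ENSMUSG00000037486, chr12:3426857-3506852) had 24.4, 25.4 and 25.7 CPM in knockouts against 24.8, 46.3 and 21.9 CPM in controls (-0.25 ± 0.27, edgeR adjusted p = 0.614). The sign of Asxl2 turned without control replicate 2, to 0.11, so no direction can be given. Both genes share exon bases with a noncoding gene on the opposite strand. That partner had 774 counts over the 6 libraries for Asxl2 and 243 for Asxl1, and without a stated strand setting such reads cannot be told apart. Per kilobase, Bap1 stood at 2.02, 1.90 and 1.53 times Asxl1 in knockouts against 1.34, 1.09 and 1.33 times in controls. These ratios did not overlap (two-sided exact permutation p = 0.1, the smallest possible), while those of Asxl1 to Asxl2 did (5.17 ± 0.23 in knockouts and 5.03 ± 1.35 in controls, two-sided exact permutation p = 0.9, SD, n = 3 each).

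The forkhead factors that recruit PR-DUB had means near or below their control levels. Foxk2 (ENSMUSG00000039275, chr11:121259990-121309896) had 51.3, 51.9 and 55.1 CPM in knockouts against 57.9, 54.1 and 51.3 CPM in controls. Its groups overlapped, and the 95% interval of its ratio, 0.815 to 1.15 around 0.969, gives the range of change these libraries allow (edgeR adjusted p = 0.839). Foxk1 (ENSMUSG00000056493, chr5:142401497-142462011) had 85.9, 90.0 and 89.1 CPM in knockouts against 109, 131 and 82.9 CPM in controls. Control replicate 3 lay below the knockout libraries and the other controls above them (log2 fold change -0.28 ± 0.17, edgeR adjusted p = 0.369, ratio 0.823 with a 95% interval of 0.625 to 1.08). Per kilobase, Foxk1 stood at 1.16 ± 0.040 times Foxk2 in knockouts and 1.37 ± 0.29 times in controls, and the groups overlapped (SD, n = 3 each, two-sided exact permutation p = 0.4).

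Sin3a (ENSMUSG00000042557, chr9:57072040-57128366) came closest to the threshold. It had 38.8, 39.2 and 42.0 CPM in knockout replicates 1 to 3, against 55.0, 64.9 and 51.9 CPM in control replicates 1 to 3. Every knockout library lay below every control library, with or without control replicate 2. The means were 40.003 ± 1.73 CPM in knockouts and 57.3 ± 6.78 CPM in controls (SD, n = 3 each), a ratio of 0.703 with a 95% interval of 0.575 to 0.858. The log2 fold change was -0.51 ± 0.12 (SE, edgeR adjusted p = 0.0687). DESeq2 called it (-0.50, adjusted p = 0.0226), limma-voom did not (adjusted p = 0.0627), and over all alternative settings the adjusted p lay between 0.0226 and 0.263. Sin3a shares 205 exon bases with Man2c1os on the opposite strand, which had 136 counts over the 6 libraries. Its paralogue Sin3b, the scaffold of a related deacetylase complex, had 105, 108 and 101 CPM in knockouts against 81.2, 75.3 and 87.3 CPM in controls (0.37 ± 0.11, edgeR adjusted p = 0.108). Per kilobase, Sin3a therefore stood at 0.504, 0.495 and 0.565 times Sin3b in knockouts, against 0.924, 1.18 and 0.812 times in controls. The ratio was 0.521 ± 0.038 in knockouts and 0.971 ± 0.187 in controls (SD, n = 3 each), with no overlap (two-sided exact permutation p = 0.1, the smallest possible). The 7 ratios compared here were chosen after the members' levels were known, and 4 of them did not overlap between the groups. Levels of single genes did not overlap for 31.8% of all genes tested, and the share for ratios of other gene pairs was not computed. Ogt, Bap1, Sin3a and Sin3b each separated the groups on their own, so the ratios Hcfc1/Ogt, Bap1/Asxl1 and Sin3a/Sin3b are not independent of those levels. Likewise, Hcfc1/Hcfc2 contains the level of Hcfc1, whose groups overlapped through only a single pair of libraries.

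**Figure D3:**
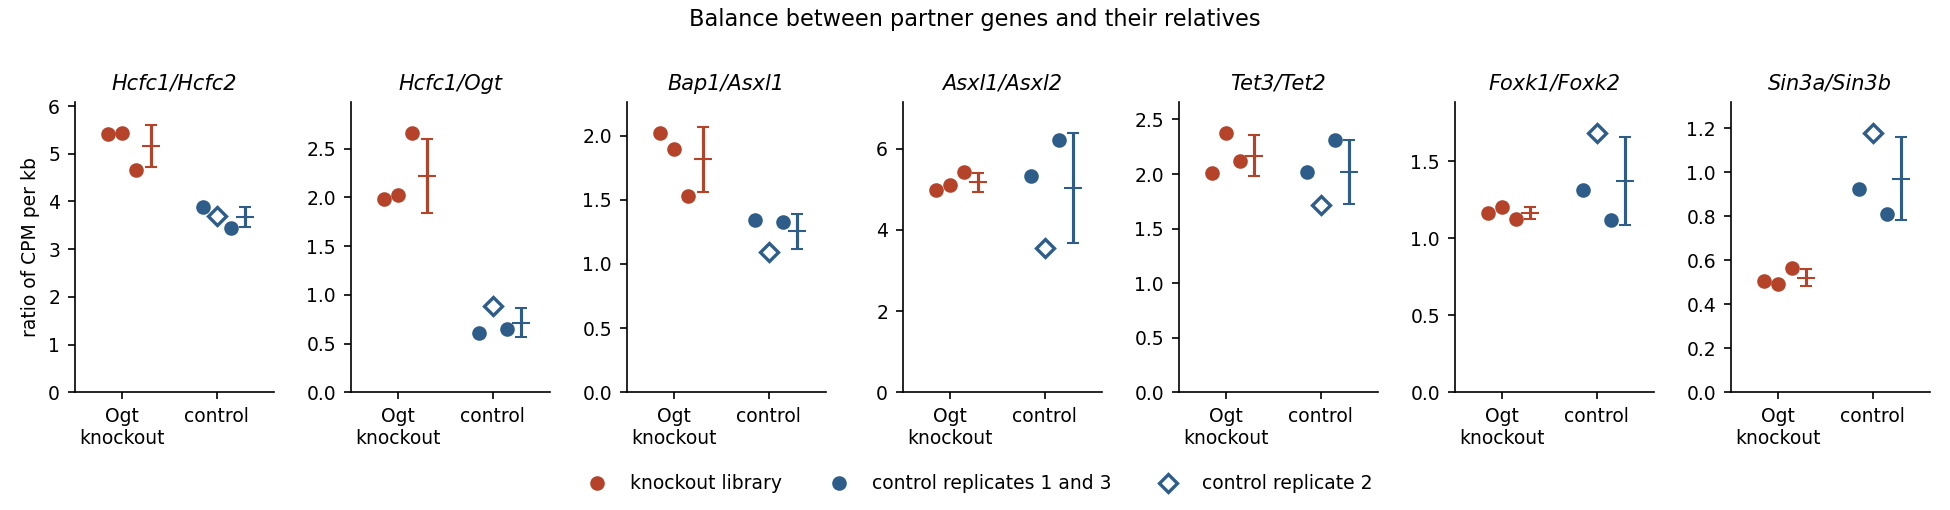
Ratio of each gene to its paralogue or partner in each library (vertical axis, ratio of CPM per kilobase of exon, starting at 0), knockout on the left and control on the right of each panel; bars give the mean ± SD of 3 libraries and the open diamond is control replicate 2. Groups do not overlap for Hcfc1/Hcfc2, Hcfc1/Ogt, Bap1/Asxl1 and Sin3a/Sin3b.

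Levels were compared between members only per kilobase of merged exons, on the CPM scale. In knockouts the order was Hcfc1 (21.6 ± 2.76), Bap1 (14.7 ± 1.19), Foxk1 (11.7 ± 0.28), Foxk2 (10.03 ± 0.39), Asxl1 (8.16 ± 0.56), Sin3a (7.43 ± 0.32), Tet3 (4.29 ± 0.42), Tet2 (1.98 ± 0.09), Asxl2 (1.58 ± 0.04) and Tet1 (0.60 ± 0.13 CPM per kilobase, SD, n = 3). Only Asxl1 and Sin3a overlapped among neighbours in that order. In controls Hcfc1 (15.2 ± 4.31 CPM per kilobase) again led and Tet1 (1.84 ± 1.24) was again last, but all 9 neighbouring pairs overlapped. The FPKM the authors deposited give another order, because the gene length behind them sums overlapping exons of different transcripts. That length was 8921 bases for Bap1 against 4682 merged exon bases, and 5765 against 5258 for Foxk2. On the authors' FPKM scale Bap1 therefore stood below Foxk2 in knockouts (7.68 ± 0.55 against 9.11 ± 0.44), and on the merged-exon scale above it.

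Most members had a high level in control replicate 2, and the 4 with the longest exons had the highest ratios to the other controls. That library was above the mean of the other controls for 9 of the 10 members, as for 45.8% of all genes tested. The ratio was 2.57 for Tet1, 2.49 for Tet2, 1.999 for Tet3 and 1.99 for Asxl2, the 4 members with more than 15000 merged exon bases. It was 1.58 for Hcfc1, with 8360 bases, and 1.37, 1.23 and 1.21 for Foxk1, Asxl1 and Sin3a. It was 1.01 for Bap1 and 0.991 for Foxk2, which have 4682 and 5258 bases. The same ratio over all genes tested had a median of 0.779 in the quintile with the shortest exons and of 1.22 in the quintile with the longest, and of 1.66 over the 368 genes of at least 15000 bases. Median log2 fold changes ran the other way, from 0.037 in the shortest quintile to -0.11 in the longest and -0.28 over those 368 genes. The part of exon length in the values of the TET genes and Asxl2 was not tested.

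**Figure D4:**
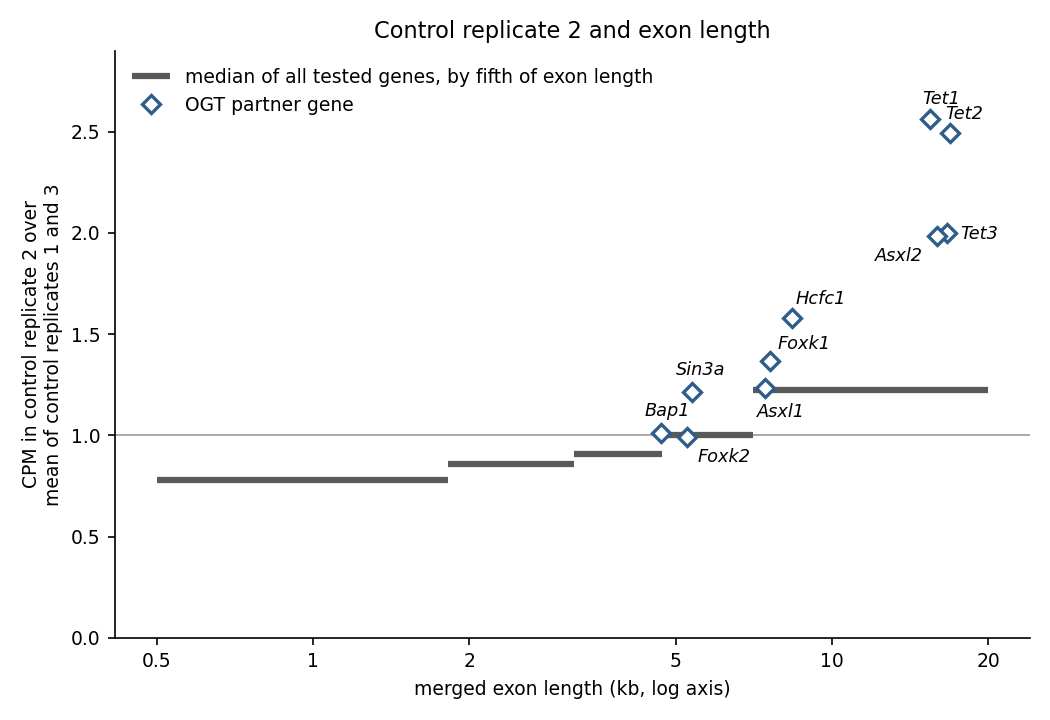
Level in control replicate 2 divided by the mean of control replicates 1 and 3 (vertical axis, ratio of CPM) against merged exon length (horizontal axis, kilobases, log scale); diamonds are the OGT partner genes and grey lines the medians of all genes tested in quintiles of exon length, with the first and last line shortened to the plotted range. The ratio is 1.01 for Bap1, 0.991 for Foxk2, 2.57 for Tet1 and 2.49 for Tet2, and the grey medians climb from 0.779 to 1.22.

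Members also differed in which other genes followed them over the 6 libraries. Among 9460 named genes with a mean of at least 10 CPM, those most like Hcfc1 by Pearson correlation of log2 CPM were Arhgap1 (r = 0.996), Trmt44 (0.989) and Katnbl1 (0.985). Those most like Tet2 were Aff2, Wdr33 and Plxna4 (r = 0.997 to 0.998), and all have their highest level in control replicate 2. Aff2 had 36.7 CPM there and 4.25 to 8.52 CPM in the other libraries. It therefore reached the mean of 10 CPM only through control replicate 2. Bap1 was followed by Supt5, Ufc1 and Pld2 (r = 0.992 to 0.993), and Sin3a by Gtf2a1, Rbpj and Pcca (r = 0.996 to 0.998). Such values were common over these 6 libraries. At r of at least 0.9 there were 122 genes for Hcfc1, 508 for Tet2, 490 for Bap1 and 613 for Sin3a. Likeness to these patterns is a description of these libraries.

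The wider complexes gave few calls. Over 129 further genes of the complexes and families of these proteins, 126 were tested and 3 passed edgeR's test, 2 higher and 1 lower, beside 1.9% of all genes tested called higher and 1.56% called lower. Arid4b, a subunit of the SIN3 deacetylase complex, fell to 32.4 ± 4.06 CPM in knockouts, against 59.3 ± 6.95 CPM in controls (log2 fold change -0.87 ± 0.15, edgeR adjusted p = 0.0323, SD, n = 3 each). Dnmt1, the maintenance DNA methyltransferase that acts opposite to the TET enzymes, rose to 63.1 ± 5.19 CPM in knockouts, against 40.8 ± 2.50 CPM in controls (0.63 ± 0.12, edgeR adjusted p = 0.0398). The forkhead gene Foxs1 rose to 35.7 ± 8.44 CPM in knockouts, against 18.0 ± 0.85 CPM in controls (0.98 ± 0.19, edgeR adjusted p = 0.0404). For these 3 genes the libraries of the groups did not overlap, as for 49 of the 126 genes tested from these lists and 31.8% of all genes tested. Leaving out control replicate 2 left all 3 called, and leaving out control replicate 1 or any 1 knockout library lost each of them, with edgeR adjusted p up to 0.158 for Arid4b, 0.186 for Dnmt1 and 0.145 for Foxs1. The calls of Dnmt1 and Foxs1 were also lost without control replicate 3 (edgeR adjusted p = 0.0777 and 0.0778). In the fit without control replicate 2, which called 2.97% of all genes tested higher and 2.54% lower, these lists had 4 genes higher and 2 lower, the added ones being Pcgf3, Creb3 and Foxf1.

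By complex, the SIN3 deacetylase genes (21 tested) had 1 fall and a median log2 fold change of 0.01, where the subunit gene Suds3 had 0.31 (edgeR adjusted p = 0.161). DNA methylation genes (18 tested) had 1 rise and a median of 0.03. Smug1, a DNA glycosylase, had -0.76 (edgeR adjusted p = 0.108). Polycomb genes (29 tested), some of whose products add the H2A ubiquitin that BAP1 removes, had 0 calls by edgeR and a median of 0.06. At an unadjusted p under 0.05 there were 4 on the higher and 7 on the lower side. Over all complex lists that share was 28.6% of the 126 genes, beside 22.7% of all genes tested. Pcgf3, a Polycomb ring-finger gene, had 68.6, 69.6 and 67.9 CPM in knockouts against 51.9, 64.1 and 49.7 CPM in controls. Its log2 fold change was 0.32 (edgeR adjusted p = 0.186), and without control replicate 2 it passed (0.44, edgeR adjusted p = 0.0398). Among them, Phf1 had 0.44 (edgeR adjusted p = 0.0795) and Pcgf2 had 0.78 (0.12). Other forkhead genes (18 tested) had the 1 rise of Foxs1 and a median of -0.14, with Foxf1 at -1.28 (edgeR adjusted p = 0.0561) and Foxo6 at -1.56 (0.0799). Without control replicate 2, Foxf1 passed (-1.47, edgeR adjusted p = 0.0315).

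Factors that bind HCF-1 (19 tested) had 0 calls by edgeR, 7 at an unadjusted p under 0.05 (22.7% of all genes tested) and a median of 0.07. The membrane-tethered factor Creb3 had 70.2 ± 0.52 CPM in knockouts and 48.5 ± 5.95 CPM in controls (log2 fold change 0.53, edgeR adjusted p = 0.0616, SD, n = 3 each), Sp1 had -0.57 (0.071) and E2f3 -0.65 (0.115). Without control replicate 2, Creb3 passed (0.45, edgeR adjusted p = 0.0400). H3K4 methyltransferase genes (11 tested) had 0 calls, 2 at an unadjusted p under 0.05 and a median of 0.06. The CpG-binding subunit gene Cxxc1 had 0.55, the enzyme gene Setd1b -0.38 and the subunit gene Wdr82 0.16 (edgeR adjusted p = 0.184, 0.213 and 0.422). Genes of the NSL acetyltransferase complex, which also holds OGT and HCF-1, had 0 calls and 0 at an unadjusted p under 0.05 among 7 tested, with a median of -0.14. Mcrs1 (0.26), Kansl1 (-0.17) and Kansl3 (-0.14) had edgeR adjusted p of 0.326, 0.397 and 0.463. Of the further PR-DUB genes, Kdm1b (0.41), Mbd5 (-0.54) and Mbd6 (0.19) were tested and 0 were called or had an unadjusted p under 0.05. DESeq2 called 5 genes of these lists higher and 6 lower, which is 8.94% of the 123 with an adjusted p, beside 10.3% of all genes (5.22% higher and 5.11% lower). limma-voom called 2 higher and 2 lower, which is 3.17% of 126, beside 4.73% of all genes.

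**Figure D5:**
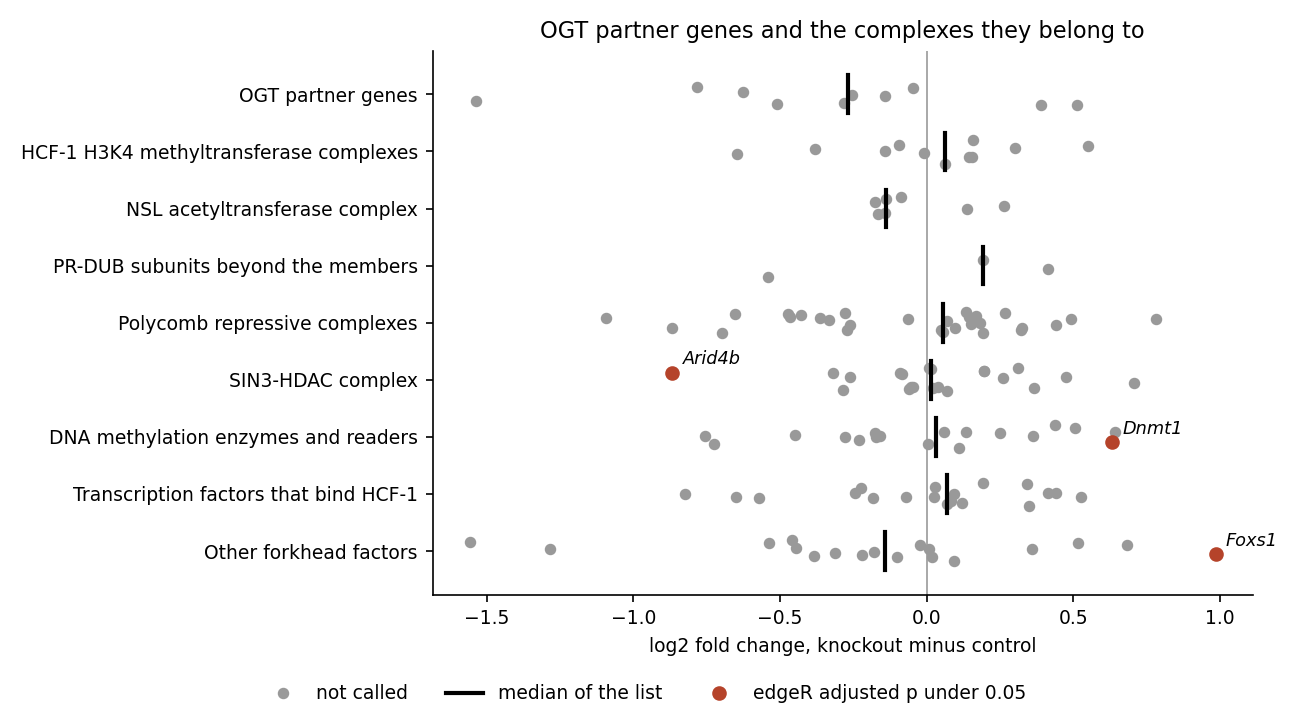
Log2 fold change, knockout minus control (horizontal axis), of each tested OGT partner gene and of the genes of each complex or family (rows), with the median of the row as a black line and genes past an edgeR adjusted p of 0.05 in red and named. The 3 named genes are Arid4b, Dnmt1 and Foxs1, and 0 of the 10 partner genes are red.

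Genes reported elsewhere to depend on these regulators gave 0 calls by edgeR. Of 8 genes of glycolysis and pyruvate use that rely on FOXK1 and FOXK2 in other cells, edgeR called 0. Among them 0 had an unadjusted p under 0.05, beside 22.7% of all genes tested, and the median was -0.03. They ran from Hk2 (log2 fold change 0.38) and Pdk4 (0.19) through Pfkl (0.15), Ldha (0.02), Pfkm (-0.08), Pkm (-0.12) and Pfkp (-0.17) to Pdk1 (-0.35). Of 3 smooth muscle genes tied to TET2 in earlier work, 0 were called. An unadjusted p under 0.05 was found for 1 of them, beside 22.7% of all genes tested. Srf, the serum response factor of contractile genes, had 55.0, 49.9 and 57.2 CPM in knockouts against 98.2, 103 and 69.4 CPM in controls. Its libraries did not overlap, as for 31.8% of all genes tested (log2 fold change -0.73 ± 0.17, edgeR adjusted p = 0.0583). DESeq2 called it (-0.73, adjusted p = 0.00567), as did edgeR without control replicate 3 (-0.89, adjusted p = 0.0380). Those fits called 5.11% and 0.742% of genes lower. Its coactivator Myocd had 93.0, 85.6 and 108 CPM in knockouts against 62.3, 143 and 41.6 CPM in controls, and its sign turned without control replicate 3. Smooth muscle myosin Myh11 had a log2 fold change of -0.32 (edgeR adjusted p = 0.275). Its groups did not overlap either, with 8124 CPM in the highest knockout library and 8161 CPM in the lowest control library.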

How the data were processed

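Per the labels, RNA was isolated with the RNeasy mini kit and sequenced from aorta in 6 libraries, 3 per group, grouped and numbered by their titles. The submitters' processing notes name CASAVA 1.8, HISAT2, SAMtools 1.3.1, edgeR and the build GRCm39. The counting program, annotation and strandedness were not given in the sources used here. Of 55227 gene identifiers shared with GENCODE M21, 99.4% had identical positions, so coordinates are given as in GRCm38.

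The authors deposited, per the file headers, a whole-number read count and an FPKM value per gene and library. The length implied by the FPKM equalled the sum of all distinct exons, overlapping ones counted repeatedly, in 97.0% of 7705 genes, those whose count reached 50 in each library (relative tolerance 0.001), and the merged exon length in 9.36%. Levels between genes therefore use CPM divided by merged exon length. FPKM enter only the sentence that names them.

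Counts were tested as deposited in R 4.3.3 with edgeR 4.0.16 (filterByExpr by group, TMM scaling, robust glmQLFit and glmQLFTest, no covariate), with Benjamini-Hochberg adjustment over 16139 genes and a threshold of 0.05. Fold changes are knockout minus control. SE is the fold change over the root of F, and intervals are 95% t intervals from it. Alternatives were DESeq2 1.42.0, limma-voom (limma 3.58.1), RLE and upper-quartile scaling, no filter, no robust estimation, a replicate block and leaving out each library. The steps were tested on simulated counts, with the same mean profile in every library of a group. That simulation did not include the unusual composition of control replicate 2. Libraries of a group differed far beyond counting error (mean chi-square per gene of 17.4 or more), but nothing says that they came from separate mice, so p-values measure the spread between these libraries, which may be technical.

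The named genes are the 10 members, Ogt, Oga, the 3 smallest p-values per complex list, all genes of the regulator target lists, and the 3 genes most correlated with each of Hcfc1, Tet2, Bap1 and Sin3a. The members and lists were chosen with earlier results of these data known. Some further genes, such as Hcfc2, Pcgf3 and the marker genes, were named after their values were seen. Of the genes this rule names, 2 are not reported here.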

Additional observations from a re-analysis of the deposited data

How the results depend on the processing

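Over the 130 refits of the 10 partner genes under 13 alternatives, 124 kept their direction and their side of the threshold. Of the rest, 4 passed (Hcfc1 without control replicate 2, Tet1 by DESeq2 and without control replicate 3, Sin3a by DESeq2) and 2 changed sign (Asxl2, from -0.46 without control replicate 3 to 0.11 without control replicate 2, Foxk2 to 0.0022 with no low-count filter). Other named genes that changed sign were Mbd5 (-0.81 without control replicate 3, 0.0060 without control replicate 2), Ldha (-0.0019 without knockout replicate 1, -0.094 without control replicate 2, 0.15 without control replicate 3), Pdk4 (-0.054 without control replicate 1, 0.38 without control replicate 3) and Myocd (-0.083 without control replicate 3, 0.88 without control replicate 2). Their causes were not tested. Of 611 refits of all named genes, 559 kept direction and side, 27 lost a call and 18 gained one.

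Counts of calls moved more. Partner genes called lower numbered 2 by DESeq2, and leaving out 1 library gave 0 to 1 higher and 0 to 1 lower. Genes of the complexes called higher and lower numbered 5 and 6 by DESeq2, 0 and 0 under the replicate block, and 0 to 4 and 0 to 2 with 1 library left out. Called lower were 2 by limma-voom and 2 with no low-count filter. Over all genes, calls higher and lower numbered 759 and 742 by DESeq2 and 18 and 10 under the replicate block, against 306 and 251 in the fit reported. With 1 library left out they ran from 4 to 491 and from 3 to 420, and were highest without control replicate 2. Same-numbered libraries did not deviate together (correlations 0.05, 0.09 and -0.06 for replicates 1, 2 and 3). No pairing by number was seen, but with control replicate 2 so unlike the rest this check cannot exclude one. The replicate block left 0 of the 10 partner genes called. The median over genes of the change in log2 fold change from the fit reported was at most 0.044 in size in any alternative. Values of Tet1, Asxl2 and Bap1 in control replicate 2 rest on 129, 125 and 143 counts, and that library's depth limits its rare transcripts.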
